A study of Mus musculus with 12 samples.

Results

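The 9 enzymes described here make the activated sugars that glycosylation consumes, and they were taken by name from a table of 24189 genes measured in 10 RNA-seq libraries of mouse antibody-secreting cells. *Gfpt1*, *Gnpnat1*, *Pgm3* and *Uap1* carry out the hexosamine pathway to UDP-N-acetylglucosamine (UDP-GlcNAc), *Nagk* feeds recycled N-acetylglucosamine into it, *Galk1*, *Ugp2* and *Ugdh* belong to the galactose and UDP-glucose branch, and *Cmas* activates sialic acid. All 9 genes were found in every library and passed the filter on low values in every comparison.

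The libraries fall into 3 genotypes of plasmablasts (PBs) and 2 genotypes of splenic plasma cells (PCs), with 2 libraries each and all on the C57BL/6 background. The PBs were grown from splenic CD43- B cells in the iGB system, in which B cells proliferate on irradiated 40LB fibroblast feeder cells with IL-4 and then IL-21, and were sorted by surface markers that included CD138 on day 8. Their genotypes were *Xbp1* fl/fl (control PBs), *Cd23*-Cre *Xbp1* fl/fl (Xbp1-deficient PBs), in which Cre acts from the immature B cell stage onward to delete *Xbp1*, and *Bhlha15* CreER/CreER, in which CreER sits in the gene for Mist1. The PCs were sorted as TACI+CD138+ spleen cells on day 7 after immunization with NP-KLH, from *Cd23*-Cre *Bhlha15* fl/fl mice (Mist1-deficient PCs) and from controls that the sample labels call wildtype and the methods of the study call *Bhlha15* fl/fl. Mist1 binding was mapped by Bio-ChIP-seq, a pulldown of biotinylated protein with streptavidin, in 2 experiments on PBs that carried *Bhlha15* fl/fl together with a biotin ligase (*Rosa26* BirA/BirA) and had grown for 4 days with LPS.

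Proteins that pass through the endoplasmic reticulum receive N-linked glycans built from UDP-GlcNAc, GDP-mannose and UDP-glucose, and the Golgi apparatus adds galactose, fucose and sialic acid from their own nucleotide sugars. Gfpt1 converts fructose-6-phosphate and glutamine to glucosamine-6-phosphate and is the rate-limiting enzyme of the hexosamine pathway, Gnpnat1 acetylates the product, Pgm3 moves the phosphate and Uap1 joins the sugar to UDP. Antibodies are glycoproteins, so plasma cells consume these donors in bulk. Xbp1 is a transcription factor of the unfolded protein response that is known to activate hexosamine pathway genes in other tissues, and Mist1 is a bHLH transcription factor of secretory cells.

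The start of each gene was compared with sequence elements of factors of these families. RefSeq promoters (GRCm38.p6, 250 bases before to 50 bases after the start site) were given for 8 of the 9 genes, that is for all but *Gnpnat1*, and 2 of them belong to *Ugp2*. On either strand, ACGTG, the core shared by elements that bZIP factors such as Xbp1 recognize, was present in the promoters of 5 of the 8 genes (*Gfpt1*, *Pgm3*, *Uap1*, *Galk1* and *Ugp2*), compared with 19.6% of 32851 mouse promoters. CCACG, the downstream part of the ER stress response element and in part overlapping ACGTG, was present for 7 of the 8 genes and in 32.8% of promoters. The full ER stress response element, CCAAT and CCACG with 9 bases between them, was found in none of the 9 promoters and in 0.119% of all. The E-box CANNTG, bound by bHLH factors and including CACGTG, occurred for 5 genes and in 72.3% of promoters, and CAGCTG for 4 genes and in 16.3%. The following 5 promoters are shown for these reasons. The first 3 belong to hexosamine genes that fell without Xbp1, and *Cmas* fell without having ACGTG. *Galk1* holds ACGTG and CCACG on both strands and did not fall. *Ugp2*, which is not shown, did not fall either and holds a longer run of these letters, CCACGCGTGG. Letters in capitals are ACGTG or CCACG on either strand.
Gfpt1: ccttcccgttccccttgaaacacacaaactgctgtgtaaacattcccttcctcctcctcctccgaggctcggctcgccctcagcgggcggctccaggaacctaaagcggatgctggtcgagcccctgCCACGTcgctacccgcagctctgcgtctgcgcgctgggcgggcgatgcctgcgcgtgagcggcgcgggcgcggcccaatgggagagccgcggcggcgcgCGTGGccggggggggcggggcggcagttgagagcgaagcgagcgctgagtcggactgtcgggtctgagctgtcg
Pgm3: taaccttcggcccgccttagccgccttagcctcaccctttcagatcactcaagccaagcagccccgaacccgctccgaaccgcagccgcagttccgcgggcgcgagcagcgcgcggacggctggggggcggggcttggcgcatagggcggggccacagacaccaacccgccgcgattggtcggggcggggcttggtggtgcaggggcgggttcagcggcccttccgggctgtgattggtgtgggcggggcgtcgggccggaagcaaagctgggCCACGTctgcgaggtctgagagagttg
Uap1: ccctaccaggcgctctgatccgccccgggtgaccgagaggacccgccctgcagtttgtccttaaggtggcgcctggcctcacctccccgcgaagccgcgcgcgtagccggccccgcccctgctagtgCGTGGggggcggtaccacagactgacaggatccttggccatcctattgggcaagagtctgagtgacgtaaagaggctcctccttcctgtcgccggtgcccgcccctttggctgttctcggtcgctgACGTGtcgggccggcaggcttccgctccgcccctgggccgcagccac
Cmas: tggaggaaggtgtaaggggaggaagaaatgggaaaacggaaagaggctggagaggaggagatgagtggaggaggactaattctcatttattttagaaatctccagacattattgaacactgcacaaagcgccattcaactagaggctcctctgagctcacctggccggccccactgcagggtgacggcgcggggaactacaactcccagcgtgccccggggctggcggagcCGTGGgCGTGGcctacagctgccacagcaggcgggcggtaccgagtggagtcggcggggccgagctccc
Galk1: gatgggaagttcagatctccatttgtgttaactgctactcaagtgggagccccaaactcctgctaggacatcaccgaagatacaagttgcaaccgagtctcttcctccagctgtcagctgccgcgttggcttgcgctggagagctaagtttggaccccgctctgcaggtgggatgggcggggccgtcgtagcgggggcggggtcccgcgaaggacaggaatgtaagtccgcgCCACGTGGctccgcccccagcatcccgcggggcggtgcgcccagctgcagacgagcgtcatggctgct
By exact match, these stretches lie in the mm9 genome at chr6:86992590-86992889 on the plus strand for *Gfpt1*, chr9:86465400-86465699 on the minus strand for *Pgm3*, chr1:172105046-172105345 on the minus strand for *Uap1*, chr6:142704956-142705255 on the plus strand for *Cmas* and chr11:115873984-115874283 on the minus strand for *Galk1*. In *Gfpt1* the ACGTG match begins 122 bases before the start site, whereas it begins 3 bases after the start site in *Uap1* and 24 bases after it in *Pgm3*. In *Galk1* the letters CCACGTGG begin 18 bases before the start site and hold both motifs on both strands. In *Cmas* CCACG is found on the opposite strand at 19 and 13 bases before the start site. These matches describe the sequence alone, as binding of Xbp1 was not measured in the files used here.

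The levels are given as TPM, a measure of transcript abundance that is relative to all transcripts of a library and corrected for gene length and that can therefore be set beside each other between genes. In control PBs, *Cmas* was the highest of the 9 genes with 209 ± 8.94 TPM (SD, n = 2), followed by *Gfpt1* with 156 ± 8.92 TPM and *Galk1* with 152 ± 4.11 TPM, which overlapped each other. *Uap1* at 113 ± 2.4, *Ugdh* at 91.6 ± 7.18 and *Ugp2* at 73.7 ± 3.21 TPM came next. The lowest levels were those of *Pgm3* at 28 ± 0.0849, *Gnpnat1* at 24.8 ± 1.92 and *Nagk* at 23.5 ± 1.55 TPM, and the last 2 overlapped. The first and last steps of the hexosamine pathway were thus at more than 100 TPM, and the steps between them at 20 to 30 TPM. The level of *Gnpnat1* is uncertain because of near-identical stretches elsewhere in the genome, as described below. *Gfpt1* mRNA was 6.23 and 6.41 times as abundant as *Gnpnat1* mRNA in the control PBs, and 2.10 and 2.47 times as abundant in the Xbp1-deficient PBs. The order was different in control PCs, where *Uap1* at 132 ± 2.2 TPM was above *Galk1* at 73.3 ± 3.25 TPM and *Ugdh* was the lowest of the 9 genes at 16.5 ± 0.731 TPM.

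**Figure D1:**
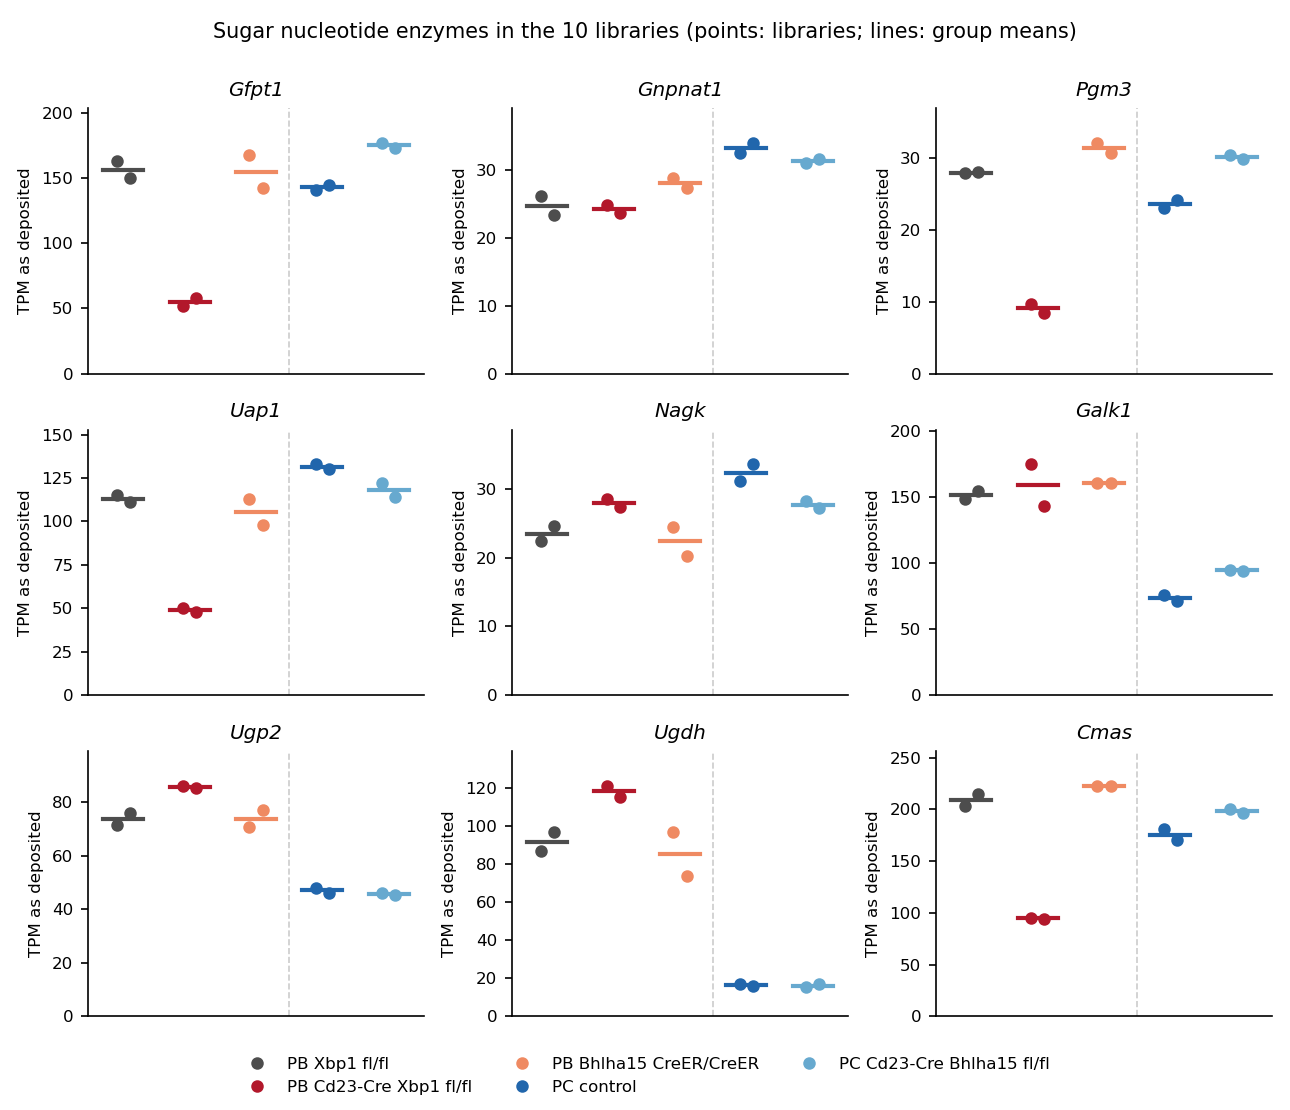
Expression of the 9 genes in each library, with TPM as deposited on the vertical axis from 0, a point per library, a line at the mean of the 2 libraries of a group and a dashed line between PBs and PCs. *Gfpt1*, *Pgm3*, *Uap1* and *Cmas* are lowest in the Xbp1-deficient PBs, whereas *Galk1*, *Ugp2* and *Ugdh* separate the PBs from the PCs.

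The targeted genes were examined first. *Xbp1* mRNA, counted over the whole gene, was 3168 and 3043 TPM in control PBs and 1981 and 2024 TPM in Xbp1-deficient PBs. *Bhlha15* was 176 and 159 TPM in control PBs, 3.57 and 2.60 TPM in Xbp1-deficient PBs and 0.210 and 0.551 TPM in *Bhlha15* CreER/CreER PBs, so that both mutant PB genotypes had little *Bhlha15* mRNA. In PCs it was 258 and 242 TPM in the controls and 14.4 and 16.6 TPM in the Mist1-deficient libraries. Of the plasma cell markers, *Sdc1* (CD138) lay between 157 and 571 TPM in all libraries. The 9 plasma cell markers summed to 21057 and 21688 TPM in Xbp1-deficient PBs, 38407 to 41856 TPM in the other PBs and 91442 to 98646 TPM in PCs, and the 6 B cell markers to 727 to 1250 TPM in all libraries. The lower sum without Xbp1 came mainly from *Igj*, *Mzb1* and *Xbp1* itself. *Mzb1*, a chaperone-associated protein of antibody-secreting cells, was 15573 and 14995 TPM in control PBs and 3707 and 3547 TPM in Xbp1-deficient PBs. *Prdm1* and *Irf4*, which encode transcription factors of plasma cells, differed the other way, with 205 and 175 TPM against 239 and 296 TPM for *Prdm1* and 683 and 652 TPM against 865 and 971 TPM for *Irf4*. Markers of other cells were present to unequal degrees. The 8 fibroblast markers summed to 919 to 1783 TPM in PBs and 9.36 to 12.4 TPM in PCs. The 9 neutrophil markers summed to 133 and 135 TPM in Xbp1-deficient PBs, 3.89 to 11.6 TPM in the other PBs and 463 to 992 TPM in PCs, and the 7 T cell markers to at most 13.6 TPM in PBs and 77.4 to 114 TPM in PCs. The 6 macrophage markers summed to 32.4 and 35.1 TPM in Xbp1-deficient PBs, 134 to 167 TPM in the other PBs and 197 to 233 TPM in PCs, and the 5 erythroid markers found summed to at most 12.7 TPM, with *Hbb-b1* at 0 in all libraries. The lower macrophage sum was that of *Cd68* alone, at 128 and 131 TPM in control PBs and 16.9 and 18.7 TPM in Xbp1-deficient PBs, while *Lyz2* was 5.86 and 5.22 TPM against 15.1 and 15.8 TPM and the other 4 macrophage markers were near 0 in all PBs. In these bulk samples, fewer cells of a type cannot be told apart from less RNA per cell.

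The first comparison asked which of these enzymes change with the loss of Xbp1 in PBs. *Gfpt1*, *Pgm3*, *Uap1* and *Cmas* fell in Xbp1-deficient PBs by limma at an adjusted p under 0.05, and none of the 9 genes rose. Over all 12125 genes tested, 18.0% fell and 10.3% rose, so that 63.6% of the calls were lower, compared with 28.4% with unscaled TPM and 43.9% with quantile normalization. The median log2 fold change of the 9 genes was -0.24, compared with 0.00 over all genes tested. By the thresholds of the study, a change above 3-fold with more than 5 TPM in the higher group, *Gfpt1* and *Pgm3* were lower, as were 1.63% of all genes, while 0.239% were higher. Both are in the list of Xbp1-activated genes that the study selected on these same libraries, which is therefore not independent evidence of their direction.

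*Gfpt1*, the entry step, was 163 and 150 TPM in control PBs and 52 and 58.2 TPM in Xbp1-deficient PBs. The mutant libraries lay far below the controls, and the log2 fold change after scaling was -1.71 (SE 0.09, limma adjusted p = 5.81e-06). *Pgm3* was 27.9 and 28.0 TPM in the controls and 9.71 and 8.45 TPM in the mutant, with a log2 fold change of -1.82 (SE 0.10, limma adjusted p = 6.33e-06). This was the strongest change among the 9 genes. *Uap1*, the last step to UDP-GlcNAc, was 115 and 111 TPM in the controls and 50 and 47.9 TPM in the mutant, with a log2 fold change of -1.41 (SE 0.08, limma adjusted p = 5.58e-06). *Cmas*, which joins sialic acid to CMP in the nucleus, was 203 and 215 TPM in the controls and 95.4 and 94 TPM in the mutant, with a log2 fold change of -1.35 (SE 0.08, limma adjusted p = 6.68e-06). For each of these 4 genes the libraries of both genotypes were well apart, and each remained lower at an adjusted p under 0.05 in all 13 alternatives.

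The remaining 5 genes did not pass the test. *Gnpnat1*, the acetyltransferase between *Gfpt1* and *Pgm3*, was 26.1 and 23.4 TPM in the controls and 24.8 and 23.6 TPM in the mutant, and the groups overlapped. Its log2 fold change was -0.24 with a 95% interval from -0.47 to -0.01 and a limma adjusted p of 0.114. *Gnpnat1* reads are uncertain, since its longest transcript in the annotation is 98.7% identical over 95.5% of its length to an unannotated stretch on another chromosome and 99.8% identical over 21.0% to a stretch in a predicted X-linked gene, and the handling of reads that match 2 places is not given in the sources used here. *Nagk*, which phosphorylates salvaged N-acetylglucosamine, was 22.4 and 24.6 TPM in the controls and 28.5 and 27.3 TPM in the mutant, where the log2 difference after scaling was 0.05 with an interval from -0.16 to 0.25. *Galk1*, the galactokinase, was 149 and 155 TPM in the controls and 175 and 143 TPM in the mutant, so that the mutant libraries lay on either side of the controls, with an interval from -0.39 to 0.10. *Ugp2*, which makes UDP-glucose, was 71.4 and 75.9 TPM in the controls and 86.3 and 85.3 TPM in the mutant, with an interval from -0.20 to 0.23. *Ugdh*, which oxidizes UDP-glucose to UDP-glucuronic acid, was 86.5 and 96.6 TPM in the controls and 121 and 115 TPM in the mutant, where the log2 difference was 0.16 with an interval from -0.06 to 0.38. *Nagk*, *Ugp2* and *Ugdh* were higher in both mutant libraries in deposited TPM, whereas none passed after scaling. The median of all genes was shifted by 0.21 on the log2 scale in the deposited values. Without scaling, *Ugp2* was higher with a log2 fold change of 0.22 and a limma adjusted p of 0.035. *Pgm3* shares 1439 exon bases, 31.4% of its own, with *Dopey1* on the opposite strand, and whether the counting used strand is not given in the sources used here. *Dopey1* was 10.4 TPM in the controls and 9.91 TPM in the mutant. The sums of the fibroblast markers (1165 and 1392 TPM in the controls, 1783 and 1639 TPM in the mutant) and of the B cell markers (935 and 966 TPM, 1095 and 1034 TPM) also did not overlap between these groups. The part of these markers and of the neutrophil, *Cd68* and plasma cell values given above in the differences was not tested.

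**Figure D2:**
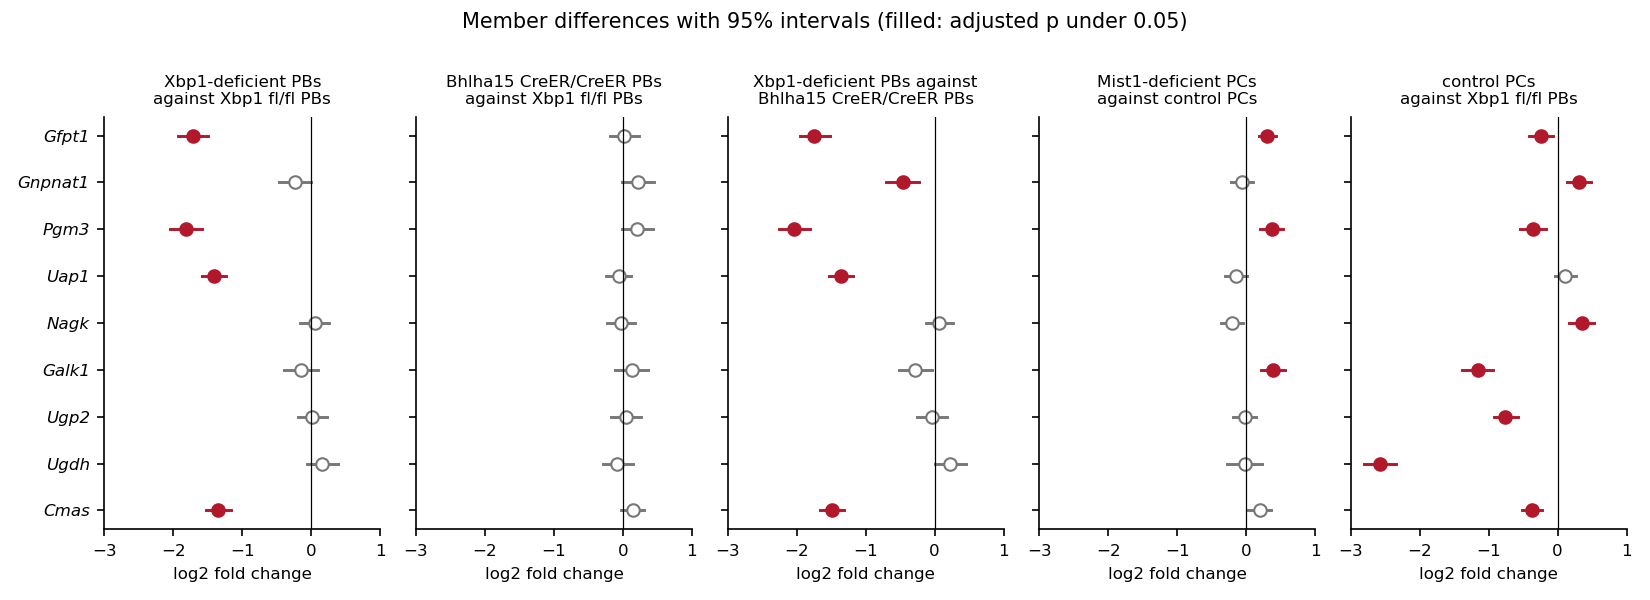
Log2 fold changes of the 9 genes on scaled TPM in 5 comparisons, with points for the estimates, bars for 95% intervals and filled red points where the limma adjusted p is under 0.05. The changes without Xbp1 reach -1.82 in *Pgm3*, whereas none of the 9 genes passed in *Bhlha15* CreER/CreER PBs and the changes in Mist1-deficient PCs do not exceed 0.39.

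Whether the loss of *Bhlha15* alone had the same effect in PBs was addressed with the *Bhlha15* CreER/CreER libraries, which share their controls with the comparison above. None of the 9 genes passed the limma test at an adjusted p under 0.05, and of all genes 0.272% fell and 0.0495% rose. None of the 9 had an unadjusted p under 0.05, as did 1267 of all 12125 genes tested. None met the thresholds of the study either, where 0.0330% of all genes were lower and 0.0165% were higher. *Gfpt1* was 168 and 142 TPM, *Pgm3* was 32.1 and 30.7 TPM, *Uap1* was 113 and 97.8 TPM and *Cmas* was 223 TPM in both *Bhlha15* CreER/CreER libraries. *Pgm3* and *Cmas* lay above both control libraries, whereas *Gfpt1* and *Uap1* overlapped with them. The 95% intervals of the log2 difference ran from -0.19 to 0.24 for *Gfpt1*, from -0.02 to 0.44 for *Pgm3*, from -0.24 to 0.12 for *Uap1* and from -0.03 to 0.31 for *Cmas*. *Gnpnat1* at 28.8 and 27.3 TPM had a difference of 0.22 (SE 0.10, limma adjusted p = 0.501). The other 4 genes differed by -0.08 to 0.13 on the log2 scale.

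The PBs of both mutant genotypes were then compared directly. *Gfpt1* (log2 fold change -1.74), *Pgm3* (-2.03), *Uap1* (-1.35) and *Cmas* (-1.49) were lower in Xbp1-deficient than in *Bhlha15* CreER/CreER PBs, with SEs of 0.08 to 0.10 and limma adjusted p-values from 4.01e-06 to 7.23e-06. *Gnpnat1* was the fifth gene that was lower, at -0.46 (SE 0.10, limma adjusted p = 0.0105), with 24.8 and 23.6 TPM against 28.8 and 27.3 TPM. Of all genes, 17.8% were lower and 9.34% were higher in this comparison, and the lower share of the calls was 65.6%, or 24.1% unscaled and 44.4% with quantile normalization. *Gfpt1* and *Pgm3* again met the thresholds of the study, as did 1.66% of all genes in this direction and 0.239% in the other. The call of *Gnpnat1* was lost without the second Xbp1-deficient library (adjusted p = 0.0556) and with unscaled TPM (0.0991), whereas *Ugdh* was higher (0.35, limma adjusted p = 0.0146) without the first *Bhlha15* CreER/CreER library and *Galk1* was lower (-0.43, limma adjusted p = 0.0251) without the first Xbp1-deficient library. The 4 genes that fell without Xbp1 were between 2.56-fold and 4.08-fold apart between these 2 genotypes. They were picked by the comparison with control PBs, which used the same Xbp1-deficient libraries, so this result is not independent of it. *Bhlha15* was low in both genotypes, although its residual level was 5.98-fold higher in the Xbp1-deficient PBs.

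In PCs, the comparison of Mist1-deficient with control libraries asked which of the enzymes change with the loss of Mist1. *Gfpt1*, *Pgm3* and *Galk1* rose and none of the 9 genes fell by limma at an adjusted p under 0.05, while 13.3% of all 12028 genes tested rose and 16.2% fell. None of the 9 genes met the thresholds of the study, as did 0.125% of all genes that rose and 0.723% that fell. *Gfpt1* was 141 and 145 TPM in the controls and 177 and 173 TPM in the mutant (log2 fold change 0.31, SE 0.05, limma adjusted p = 0.0102). *Pgm3* was 23.1 and 24.1 TPM in the controls and 30.4 and 29.8 TPM in the mutant (0.37, SE 0.07, limma adjusted p = 0.0132). *Galk1* was 75.6 and 71 TPM in the controls and 95 and 94.1 TPM in the mutant (0.39, SE 0.07, limma adjusted p = 0.0127). The libraries of each of these 3 genes were separated by genotype, but the calls rested on both mutant libraries, as 0 of the 9 genes passed when either Mist1-deficient library was left out, with adjusted p-values from 0.0799 to 0.105. The call of *Galk1* was also lost with eBayes without the trend (adjusted p = 0.054).

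Of the other genes in PCs, *Cmas* was 181 and 170 TPM in the controls and 200 and 197 TPM in the mutant, with a log2 fold change of 0.20 and a limma adjusted p of 0.074, which was 0.0131 without the first control library. *Nagk* was 31.1 and 33.6 TPM in the controls and 28.2 and 27.2 TPM in the mutant, with a log2 fold change of -0.21 and a limma adjusted p of 0.0706. *Uap1* was 133 and 130 TPM in the controls and 122 and 114 TPM in the mutant, where the log2 difference was -0.15 with an interval from -0.31 to 0.01. *Gnpnat1*, *Ugp2* and *Ugdh* differed by -0.06, -0.02 and -0.02 on the log2 scale. *Dopey1*, which overlaps *Pgm3*, was 15.4 TPM in the controls and 18.1 TPM in the mutant, and its part in the *Pgm3* value was not tested. The neutrophil markers summed to 992 and 463 TPM in the control and 849 and 563 TPM in the mutant libraries and thus overlapped. In contrast, the sums were separated by genotype for the T cell markers (77.7 and 77.4 TPM in the controls, 89.8 and 114 TPM in the mutant), the B cell markers (947 and 1250 TPM, 727 and 802 TPM) and the erythroid markers (11.4 and 12.7 TPM, 9.5 and 5.23 TPM), and their part in the differences was not tested.

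Whether the loss of *Bhlha15* acted differently in PCs and PBs was tested as the difference between both effects. None of the 9 genes passed at a limma adjusted p under 0.05. An unadjusted p under 0.05 was found for 2 of them, *Gfpt1* and *Gnpnat1*, and for 2905 of all 13230 genes tested. The count of 2 is therefore no result about these genes. The difference was 0.30 on the log2 scale for *Gfpt1* (SE 0.11, limma adjusted p = 0.137) and -0.27 for *Gnpnat1* (SE 0.11, limma adjusted p = 0.196), while 4.17% of all genes were lower and 1.94% were higher by this test (0.317% and 0.0831% by the thresholds of the study). A difference in the response of *Gfpt1*, *Pgm3* or *Galk1* between the stages was therefore not shown. The alleles and controls differ between PBs and PCs and cannot be told apart from the stage.

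The control PCs were next set beside the control PBs. *Ugdh*, *Galk1*, *Ugp2*, *Cmas*, *Pgm3* and *Gfpt1* were lower in control PCs, *Gnpnat1* and *Nagk* were higher, and *Uap1* did not pass by limma at an adjusted p under 0.05, where 38.4% of all 13230 genes tested were lower and 37.6% were higher. As most genes passed in this comparison, the count of 8 of 9 genes is no result about these genes. *Ugdh* was 17 and 16 TPM in control PCs and 86.5 and 96.6 TPM in control PBs, a 5.97-fold difference on the scaled values (log2 -2.58, SE 0.10, limma adjusted p = 7.05e-08). It was the only one of the 9 genes that met the thresholds of the study, as did 6.19% of all genes in this direction and 7.77% in the other. *Galk1* was 75.6 and 71 TPM in control PCs and 149 and 155 TPM in the PBs (log2 -1.16, SE 0.10, limma adjusted p = 5.09e-06). *Ugp2* was 47.9 and 46.3 TPM against 71.4 and 75.9 TPM (log2 -0.76, SE 0.08, limma adjusted p = 1.81e-05). The galactose and UDP-glucose branch thus held the 3 largest differences among the 9 genes.

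The differences in the other genes were smaller. *Cmas*, *Pgm3* and *Gfpt1* had log2 differences of -0.37, -0.36 and -0.24. The call of *Gfpt1* (SE 0.07, limma adjusted p = 0.0144) was lost in 4 of 13 alternatives, among them without the second control PC library (0.059) and without the first control PB library (0.112). *Gnpnat1* at 32.5 and 34 TPM and *Nagk* at 31.1 and 33.6 TPM were above the control PBs by 0.31 and 0.35 on the log2 scale, and the call of *Gnpnat1* was lost without the second control PB library (0.21, limma adjusted p = 0.0544). *Uap1* differed by 0.11 with an interval from -0.04 to 0.26, but it was higher in control PCs with unscaled TPM (0.22, limma adjusted p = 0.0182) and with quantile normalization (0.23, limma adjusted p = 0.00974). Culture, sort, day, control genotype and library series all differ between PBs and PCs and cannot be told apart.

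*Ugdh* was high where the fibroblast markers were high. Over the 6 PB libraries, its deposited levels of 73.4, 86.5, 96.6, 96.7, 115 and 121 TPM followed the same order as the summed fibroblast markers of 919, 1165, 1392, 1548, 1639 and 1783 TPM, and *Ugdh* was the only one of the 9 genes with this order, although *Nagk* missed it by a single pair of neighbours. After scaling, none of the 9 genes had the order of the fibroblast sum, as the first *Bhlha15* CreER/CreER library (*Ugdh* 97.6, markers 1562 on scaled TPM) and the second Xbp1-deficient library (103 and 1463) changed places. The lowest of both values were those of the second *Bhlha15* CreER/CreER library. In deposited TPM, *Col1a1*, *Col1a2*, *Fn1* and *Sparc* made up most of the fibroblast sum and followed its order over the PBs. *Col3a1*, *Dcn*, *Lum* and *Pdgfrb* did not follow it. In the 4 PC libraries, in which the fibroblast markers were near 0 by comparison, *Ugdh* lay between 15.3 and 17 TPM. *Galk1* and *Ugp2* were also higher in all PBs than in all PCs, but did not follow the order of the fibroblast markers within the PBs on either scale. The part of feeder cells in these levels was not tested.

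**Figure D3:**
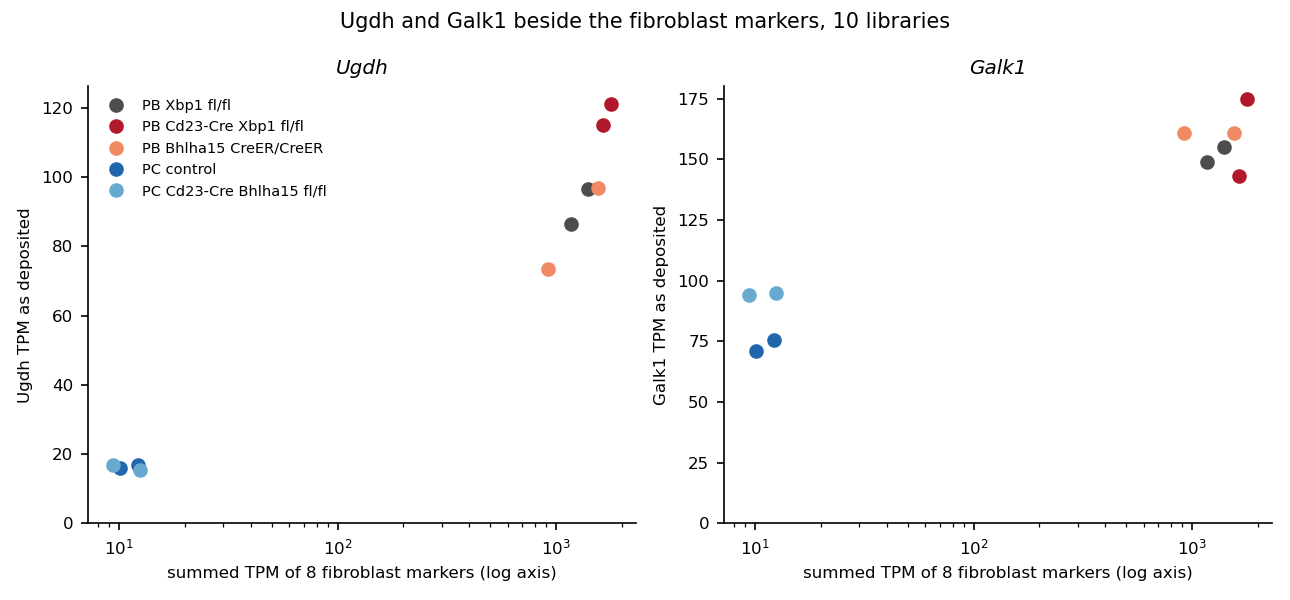
*Ugdh* (left) and *Galk1* (right) in deposited TPM from 0 against the summed TPM of 8 fibroblast markers on a log axis, with a point per library. Among the 6 PB libraries *Ugdh* in deposited TPM has the order of the markers, from 73.4 to 121 TPM, and the 4 PC libraries sit together at 15.3 to 17 TPM.

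The order of the 5 groups was not the same for all genes. *Gfpt1*, *Pgm3*, *Uap1* and *Cmas* had their lowest mean in Xbp1-deficient PBs, and the fold between their highest and lowest group means was 3.17, 3.46, 2.70 and 2.36. *Gfpt1* was highest in Mist1-deficient PCs at 175 ± 3.02 TPM, followed by control PBs, *Bhlha15* CreER/CreER PBs and control PCs, where neighbours from the second to the fourth place overlapped. *Uap1* was highest in control PCs at 132 ± 2.2 TPM. The groups spanned 7.34-fold in *Ugdh*, with the 2 PC groups overlapping each other, and 2.2-fold in *Galk1* and 1.87-fold in *Ugp2*. *Gnpnat1* with 1.38-fold and *Nagk* with 1.44-fold were the most even of the 9 genes.

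Outside the pathway, 4 of the 5 genes whose profiles were most like the mean standardized profile of the 9 genes over the 10 libraries were *Stt3a* (Pearson r = 0.986), *Pdia6* (0.985), *Pdia3* (0.982) and *Uggt1* (0.979), among 9821 genes with a mean above 5 TPM. These values are descriptions, as the libraries share groups and scaling. *Stt3a*, a catalytic subunit of the oligosaccharyltransferase, was 1241 and 1165 TPM in control PBs, 366 and 358 TPM in Xbp1-deficient PBs and 836 and 762 TPM in control PCs. *Uggt1*, which reglucosylates unfolded glycoproteins with UDP-glucose, was 162 and 155 TPM, 41.6 and 42.5 TPM, and 90 and 89.7 TPM in the same groups. *Pdia6* and *Pdia3* encode disulfide isomerases of the endoplasmic reticulum. Of the 9 genes, *Cmas* (r = 0.96), *Pgm3* (0.93), *Gfpt1* (0.88) and *Uap1* (0.83) were closest to the mean profile and *Nagk* (-0.36) was farthest from it. *Gnpnat1* (0.55), *Galk1* (0.21), *Ugp2* (0.03) and *Ugdh* (0.00) lay between them, so that the mean profile does not stand for all 9 genes.

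A list of 34 further genes of sugar nucleotide metabolism was examined beside the 9 enzymes. In Xbp1-deficient PBs, 8 of the 31 genes tested fell and 5 rose, beside 18.0% and 10.3% of all genes. Genes of other branches were among those that fell more than 2-fold. *Gmppb* and *Gmppa*, which encode subunits of the enzyme that makes GDP-mannose, fell from 162 ± 5.26 to 30.6 ± 1.72 TPM (log2 fold change -2.61, SE 0.10) and from 376 ± 15.4 to 109 ± 1.90 TPM (-1.99, SE 0.07). *Nans*, the sialic acid synthase, fell from 337 ± 0.402 to 126 ± 3.90 TPM (-1.62, SE 0.09) and *Gmds*, the GDP-mannose dehydratase of the fucose branch, from 87.0 ± 0.0783 to 33.3 ± 2.35 TPM (-1.59, SE 0.09). The limma adjusted p-values of these 4 genes lay between 9.10e-07 and 6.48e-06. All 3 sialic acid genes tested fell, as *Gne* and *Cmah* were lower by -0.46 and -0.66, while *Nanp* and *Npl* were below the filter. *Nans* is also in the list that the study selected on these libraries.

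In contrast, 4 of the 6 genes around UDP-GlcNAc outside the 9 enzymes rose in Xbp1-deficient PBs and none fell, beside 10.3% and 18.0% of all genes. The number of higher calls depended on scaling. Of the 31 pathway genes, 5 were higher in the main fit, 10 with deposited TPM and 8 with quantile normalization. *Amdhd2*, which deacetylates N-acetylglucosamine-6-phosphate, rose from 13.2 ± 1.81 to 28.0 ± 1.35 TPM (log2 fold change 0.88, SE 0.10, limma adjusted p = 0.000379). *Renbp*, an N-acetylglucosamine epimerase, rose by 0.64 (SE 0.17, limma adjusted p = 0.0256), *Gnpda1*, which turns glucosamine-6-phosphate back into fructose-6-phosphate, by 0.46 (SE 0.10, limma adjusted p = 0.0110) and *Uap1l1*, a paralog of *Uap1*, by 0.33 (SE 0.07, limma adjusted p = 0.00980). The calls rest in part on single libraries, as leaving out 1 library left 2 to 5 of the 31 genes higher. *Uap1* and *Uap1l1* were at similar levels in control PBs, with ratios of 0.992 and 0.954, whereas *Uap1* was 0.298 and 0.283 times *Uap1l1* in the mutant and 2.4 and 2.67 times *Uap1l1* in control PCs. *Gfpt2*, the paralog of *Gfpt1*, was at most 1.25 TPM in any library. *Galk2*, a paralog of *Galk1*, was 64.0 ± 1.93 TPM in the controls and 74.2 ± 1.23 TPM in the mutant, with a scaled log2 difference of 0.01.

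**Figure D4:**
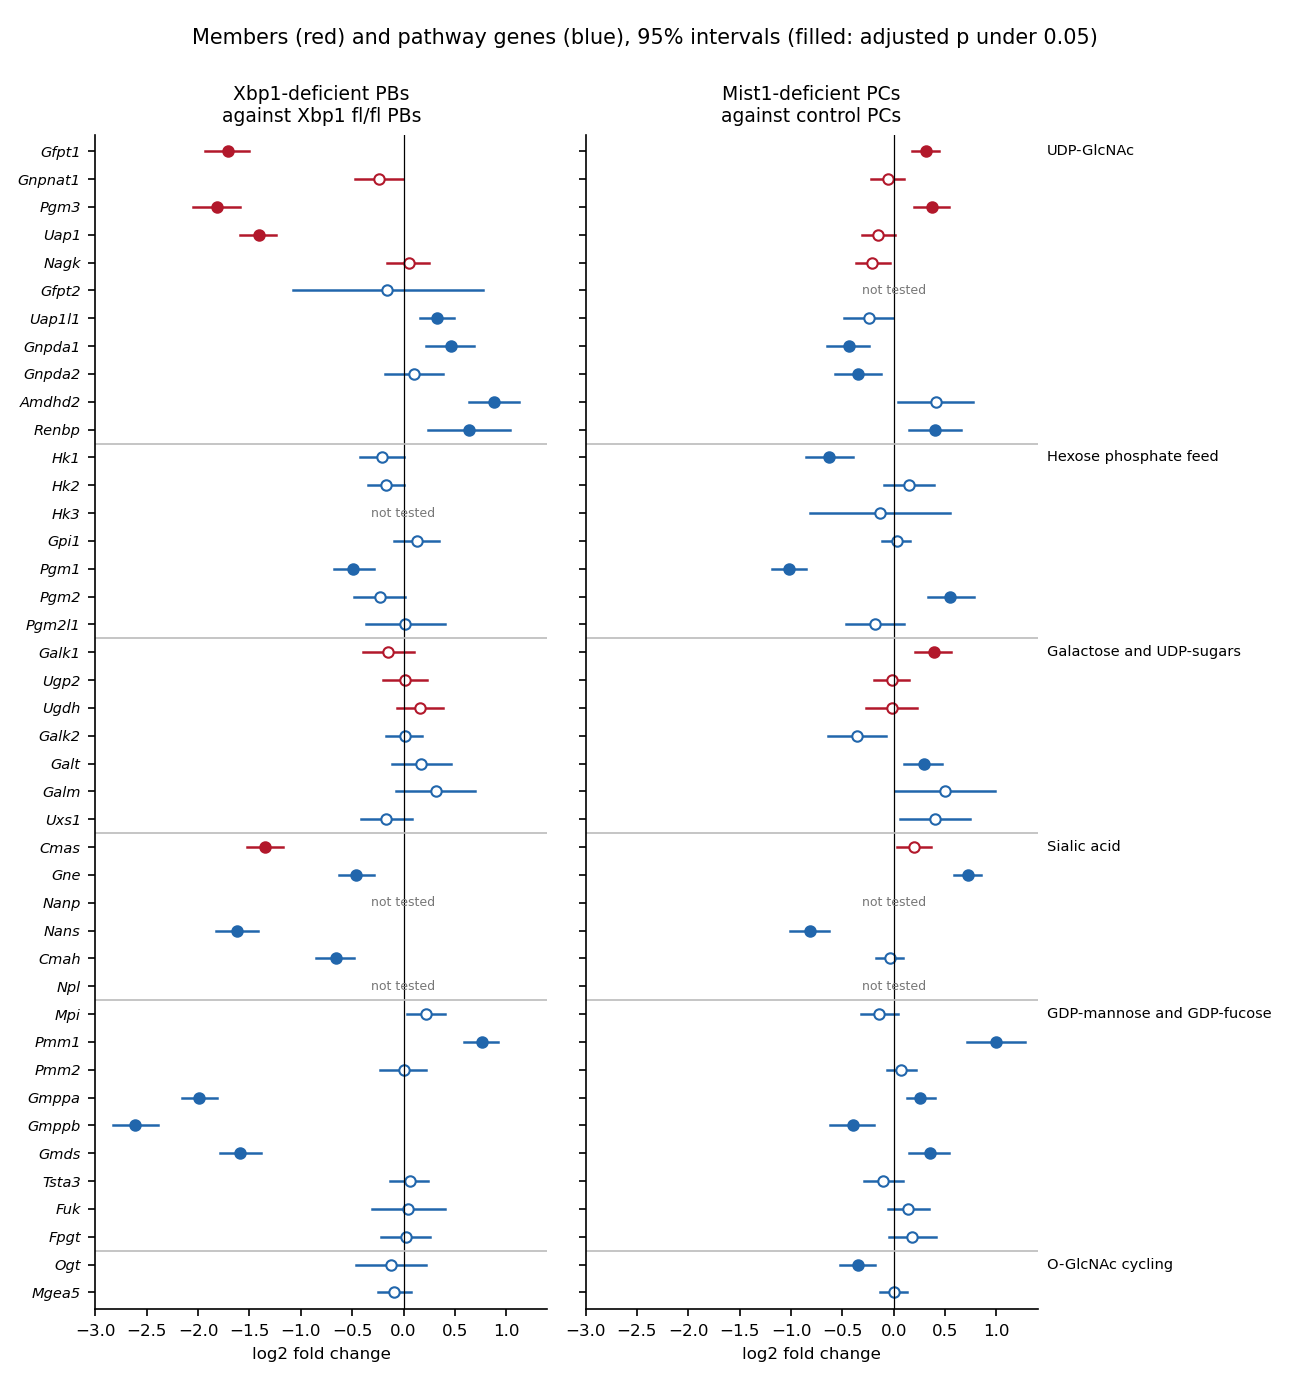
Log2 fold changes of the 9 genes (red) and of further pathway genes (blue) without Xbp1 in PBs (left) and without Mist1 in PCs (right), grouped by branch, with bars for 95% intervals and filled points where the limma adjusted p is under 0.05. The largest decreases drawn without Xbp1 are those of *Gmppb*, *Gmppa* and *Pgm3*, and only *Pgm1* and *Pmm1* reach about 1 on the log2 scale without Mist1.

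None of the 31 pathway genes tested passed in *Bhlha15* CreER/CreER PBs by limma, where 0.272% of all genes fell and 0.0495% rose. An unadjusted p under 0.05 was found for 8 of the 31 and for 1267 of all 12125 genes tested. In Mist1-deficient PCs, 7 of 31 fell and 8 rose, beside 16.2% and 13.3% of all genes, and a single gene changed more than 2-fold. This was *Pgm1*, named as a phosphoglucomutase, which was 42.2 ± 0.306 TPM in the controls and 20.5 ± 0.289 TPM in the mutant (log2 fold change -1.02, SE 0.07, limma adjusted p = 0.00133). *Pgm2*, which is also named as a phosphoglucomutase, rose from 21.3 ± 1.42 to 30.8 ± 0.122 TPM (0.55, SE 0.09, limma adjusted p = 0.0094). In the sialic acid branch *Nans* fell from 414 ± 27.3 to 231 ± 1.30 TPM (-0.82, SE 0.08, limma adjusted p = 0.00228), whereas *Gne*, whose product catalyses the first committed steps, rose from 91.3 ± 1.67 to 149 ± 1.48 TPM (0.72, SE 0.05, limma adjusted p = 0.00151). Leaving out either mutant library reduced the counts to 3 lower and 3 higher.

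Between control PCs and control PBs, 16 of the 32 pathway genes tested were lower and 10 were higher, beside 38.4% and 37.6% of all genes, so that these counts are no result about the pathway either. *Pmm1* (log2 -2.15), *Pgm2* (-1.94) and *Gpi1* (-1.62) were lower more than 3-fold with over 5 TPM in the PBs, and *Galm* (-1.32), *Uap1l1* (-1.27) and *Gfpt2* (-2.81, at most 1.25 TPM) were also lower by more than 2-fold. *Ogt*, which transfers N-acetylglucosamine from UDP-GlcNAc to nuclear and cytoplasmic proteins, was 430 and 495 TPM in control PCs and 56.2 and 66.9 TPM in the PBs (log2 2.80, SE 0.14, limma adjusted p = 2.74e-07). *Galt*, the galactose-1-phosphate uridylyltransferase next to *Galk1*, was 34.0 ± 0.495 TPM in control PCs and 13.2 ± 0.0406 TPM in the PBs, and thus differed in the direction opposite to *Galk1*. *Hk3* was 2.53 ± 0.449 TPM in control PCs and 0.0985 ± 0.0355 TPM in the PBs. The neutrophil markers summed to 992 and 463 TPM in control PCs and 11.6 and 10.3 TPM in control PBs. The part of such cells in the *Hk3* values was not tested.

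Mist1 binding was described at the 9 genes by regions found in both Bio-ChIP-seq experiments, which number 23804. The peak lists used hold 29413 and 30247 peaks. The study reports more peaks for each experiment and more common peaks, so this set is not the common set of the study. In mm9, with the genes of GENCODE release M1, such a region lay within 1 kb of a start site in 8 of the 9 genes, compared with 63.0% of 10938 protein-coding genes that were expressed in PBs and 35.8% of all 22359 protein-coding genes. A common region overlapped the gene body of the same 8 genes, compared with 70.5% of the expressed and 42.8% of all protein-coding genes. The exception was *Pgm3* (chr9:86446083-86465449, minus strand), where only the second experiment had a peak, of 1768 bases, across the start site. *Gfpt1* (chr6:86992840-87042191, plus strand) had 2 regions near its start, at -730 to 227 and 713 to 1619 bases from it, and another region of 374 bases in the gene body. A further region lay upstream of *Gfpt1*, at -5162 to -4152 bases. *Uap1* (chr1:172072069-172105088, minus strand) had a region of 2047 bases over its start and one of 1090 bases in the gene body. *Cmas* (chr6:142705206-142724234, plus strand) had a region of 1717 bases over its start and further regions upstream, at -5961 to -5275 and -4319 to -3805 bases. *Galk1* (chr11:115869771-115874033, minus strand) had a region of 1670 bases over its start, which covers the CCACGTGG shown above, and another upstream. *Ugdh* (chr5:65804441-65827185, minus strand) had 2 regions near its start, and *Nagk* (chr6:83744976-83753414, plus strand), *Ugp2* (chr11:21221141-21271204, minus strand) and *Gnpnat1* (chr14:45996009-46008477, minus strand) had one each. Both genes that rose without Mist1 and had a common region, *Gfpt1* and *Galk1*, shared this feature with 6 genes that did not pass, and *Pgm3*, which also rose, had none. The peak lists give positions without heights, and the PBs used for binding were stimulated with LPS, unlike those used for RNA-seq.

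**Figure D5:**
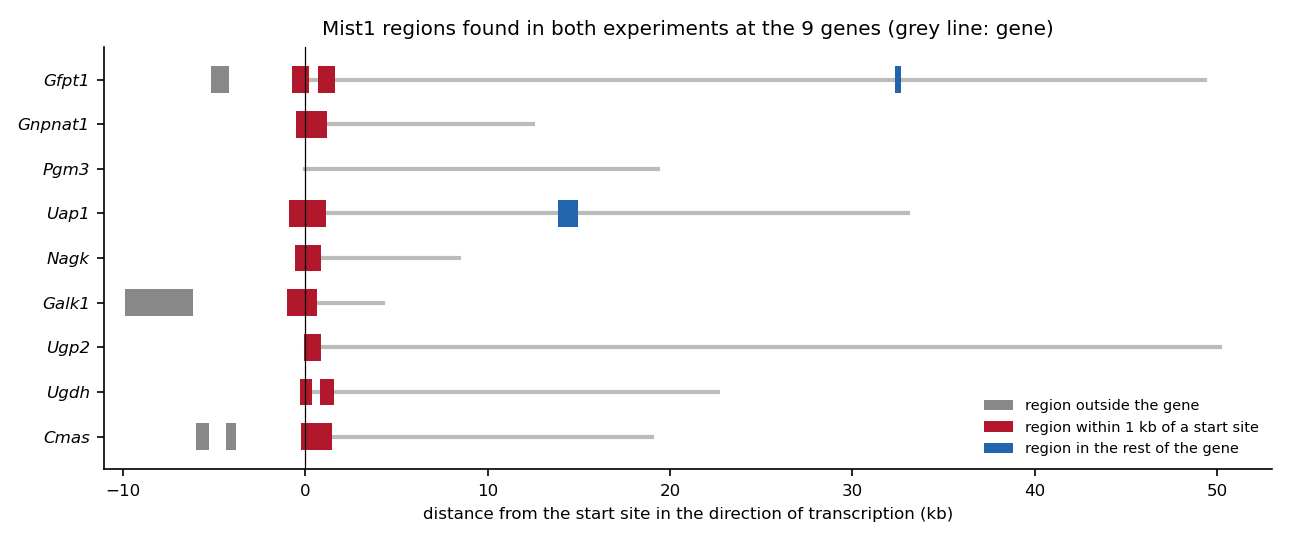
Mist1 regions common to both experiments at the 9 genes, drawn to scale against the distance from the start site in kb in the direction of transcription, with grey lines for the genes. Of the 9 genes, 8 have a red region within 1 kb of a start site and *Pgm3* has none.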

How the data were processed

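The 10 deposited TPM tables and the peak positions of both Bio-ChIP-seq experiments were used. Per the study's methods and the submitters' processing notes, the authors trimmed reads with cutadapt, aligned them to mm9 with STAR 2.4.2, used featureCounts 1.5 for the counts of each gene, and deposited them as TPM without immunoglobulin and T cell receptor genes, so that each library sums to 1000000 and its depth is unknown. They aligned ChIP reads with Bowtie 1.0.0 and called peaks per experiment with MACS. The PC tables list 543 more rows than the PB tables, all at 0, and the suffix on the names of *Gnpnat1*, *Pgm3* and *Galk1* was removed.

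Tables were joined on gene symbols. Scaling used median-of-ratios factors within each model (the 6 PB, the 4 PC or all 10 libraries). Genes that reached 1 TPM in 2 or more libraries entered the fit as log2(scaled TPM + 0.1) with limma 3.58.1 (R 4.3.3; lmFit, contrasts.fit, eBayes with trend), and p-values were adjusted by Benjamini-Hochberg over all genes tested. The pseudocount understates changes of low genes. The scripts were tested on simulated data. With 2 libraries for each group an exact test of a single gene cannot go below p = 0.333, and p-values measure the spread between these libraries. All named genes are the 9 members, the targeted genes, the pathway genes changed over 2-fold, paralogs or examples of a branch, genes of the most similar profile, and *Dopey1* and single marker genes, which were named beside a result after their values were seen. The members and lists were chosen with earlier results of these data known.

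Peaks sharing at least 1 bp between the experiments were merged with bedtools 2.31.1 to common regions, and start sites were those of coding transcripts of GENCODE M1. Promoters were placed on mm9 by exact match, and copies of transcripts at 95% identity or more over at least 200 bases were sought with BLAST+ 2.17.0. Alternatives were unscaled TPM, quantile normalization, pseudocounts of 1 and 0.01, no filter or a filter of 5 TPM, eBayes without trend, robust eBayes, fits restricted to the groups compared, each library left out in turn, for the order of *Ugdh* and the fibroblast markers scaled TPM (chosen after seeing the data), and for peaks other overlaps, distances and single experiments. The labels of the series' design text and of the samples disagree on which libraries are PBs, and the sample labels were used. Some items are not reported here, although counts over lists include them.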

Additional observations from a re-analysis of the deposited data

Results flagged for a closer look

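The effect of *Bhlha15* loss was compared between PCs and PBs by the test of the difference itself with limma over all 10 libraries. It differed in 5 of the 32 pathway genes tested and in none of the 9 enzymes. Of all 13230 genes tested, 4.17% were lower and 1.94% were higher. Of the 5 pathway genes, 4 are given here. The log2 change in PCs minus that in PBs was -0.73 for *Pgm1* (SE 0.10, adjusted p = 0.00837), -0.59 for *Nans* (SE 0.11, adjusted p = 0.0214), 0.49 for *Gne* (SE 0.07, adjusted p = 0.00895) and 0.76 for *Pmm1* (SE 0.13, adjusted p = 0.0151). The alleles and controls of both stages differ and cannot be told apart from the stage. Without the trend in eBayes 1 gene was lower and 1 was higher, and leaving out single libraries left 1 to 4 lower and 1 to 3 higher.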

How the results depend on the processing

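Of 720 refits of a member's log2 fold change under the alternatives, 696 kept the direction or remained without a call and stayed on their side of the threshold, 14 lost and 9 gained a call, and 1 reversed. The reversal was *Ugp2* in Xbp1-deficient against *Bhlha15* CreER/CreER PBs, which was 0.22 (limma adjusted p = 0.0352) with TPM as deposited. The median of all genes moved without scaling by 0.21 against control PBs, by 0.26 against *Bhlha15* CreER/CreER PBs and by 0.12 between control PCs and PBs, and lower genes made up 63.6% of the calls without Xbp1 with scaling, 28.4% with deposited TPM and 43.9% with quantile normalization.

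Without Xbp1 against control PBs, deposited TPM gave 1 member higher, 1 lower by the study's thresholds and 10 pathway genes higher, and quantile normalization gave 8 pathway genes higher. Against *Bhlha15* CreER/CreER PBs the same counts were 2, 1 and 12 with deposited TPM and 1, 1 and 6 with quantile normalization. In Mist1-deficient PCs, eBayes without the trend gave 4 pathway genes lower and 4 higher, and for the difference between stages it gave 1 lower and 1 higher. The causes were not tested.

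Leaving out single libraries gave 2 to 5 pathway genes higher without Xbp1 against control PBs, 1 to 4 pathway genes and 0 to 1 members higher and 4 to 6 lower against *Bhlha15* CreER/CreER PBs, 0 to 4 members higher, 3 to 9 pathway genes lower and 3 to 10 higher in Mist1-deficient PCs, 1 to 2 members higher in control PCs, and 1 to 4 pathway genes lower and 1 to 3 higher for the difference between stages. The single member count in control PCs arose without the second control PB library, where *Gnpnat1* lost its call. Over all genes, leaving out a library gave 1282 to 1659 lower and 540 to 624 higher without Xbp1, 3 to 39 lower and 0 to 23 higher in *Bhlha15* CreER/CreER PBs, 816 to 2172 lower and 294 to 2085 higher without Mist1 in PCs, and 119 to 634 lower and 32 to 320 higher for the difference between stages. The numbers of lower and higher genes without Xbp1 were 2186 and 1250 with scaling, 1357 and 3423 with deposited TPM, and 1965 and 2511 with quantile normalization, and against *Bhlha15* CreER/CreER PBs they were 2155 and 1132, 1266 and 3977, and 1856 and 2325. Without the trend, 844 rather than 1601 genes rose in Mist1-deficient PCs, and 227 and 96 rather than 552 and 257 differed between stages, where quantile normalization gave 529 higher. In *Bhlha15* CreER/CreER PBs the 33 lower and 6 higher genes became 74 and 12 unscaled, 63 and 12 with quantile normalization and 71 and 10 with robust eBayes. The counts of members with a Mist1 region stayed at 8 or 9 under all peak alternatives. A lone library left in a group was assumed to vary like the others of its model. No paired analysis was possible because the labels give no replicate numbers, and the first and second library of a group are named by the order of their deposit. Depth is unknown, so that no floor can be given for low genes such as *Gfpt2*.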
